A study of Mus musculus with 11 samples.

Results

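The genes described here encode the eukaryotic translation initiation factors (eIFs), the proteins that bring the ribosome to the start codon of a messenger RNA. Members were chosen by name and level. Of 52661 genes in the authors' deposited table of expression, the 46 whose names begin with Eif1 to Eif6 and whose highest level over the 5 groups was at least 1 RPKM (reads scaled to transcript length and library size) were kept, leaving out the Eif2ak kinases, the Eif4ebp binding proteins and pseudogenes. For splicing, the 950 events of these genes with at least 10 reads in every library were kept, of 220976 such events in all. The level threshold decided little, since all 46 members were at or above 1 RPKM in every group. Just inside it stood Eif3j1 and Eif2d, with highest levels of 9.11 and 13.28 RPKM in the authors' deposited table. Just outside stood Eif2c5, Eif4e1b and Eif2s3y, with highest levels of 0.26, 0.06 and 0.01 RPKM in the same authors' deposited table.

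The cells were Neuro-2A (N2A), a cultured line from a mouse neuroblastoma, and their messenger RNA was sequenced from cultures harvested 48 h after transfection of siRNA pools. The 5 groups were non-targeting pools (siNT, 3 libraries), Fubp1 knockdown (2), Khsrp knockdown (2), knockdown of Khsrp and Fubp1 together (the double knockdown, 2) and Rbm38 knockdown (2). All 3 targets are RNA-binding proteins: FUBP1 and KHSRP bind through KH domains and RBM38 through an RNA recognition motif. The series calls the libraries biological replicates of a single cell line, so the spread between them is that between cultures of this line.

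Initiation starts with a ternary complex of eIF2, GTP and initiator transfer RNA, which eIF1, eIF1A, eIF3 and eIF5 help to load onto the small ribosomal subunit. The cap-binding protein eIF4E, the scaffold eIF4G and the RNA helicase eIF4A, aided by eIF4B and eIF4H, recruit that subunit to the capped 5′ end and unwind the leader. At the start codon eIF5 promotes GTP hydrolysis, eIF5B joins the large subunit, and eIF2B then reloads eIF2 with GTP, the step that stress kinases block.

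The authors' deposited table placed Fubp1 at 180.07 RPKM in siNT and at 27.89 and 19.82 RPKM in the Fubp1 and double knockdowns. Khsrp stood at 47.03 RPKM in siNT and at 8.06 and 6.77 RPKM in the Khsrp and double knockdowns of the authors' deposited table, and Rbm38 at 34.47 RPKM in siNT and 4.03 RPKM in its own knockdown. Khsrp was itself called lower after Rbm38 knockdown, at 33.8 RPKM (log2 fold change -0.70, FDR 0.0243) in the authors' deposited table. Rbm38 read 24.36 and 22.49 RPKM in the Khsrp and double knockdowns of the authors' deposited table, where it was not called (FDR 0.835 and 0.913). Of 14 markers of neuroblastoma and sympathetic neurons, 12 reached 1 RPKM in at least 1 group, while the neurofilament genes Nefl and Nefm did not. Of 11 markers of other cell types, 5 did. The median number of reads over the members' tested splicing events ran from 378.5 to 1132.5 per library, lowest in the double knockdown.

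Of the 46 initiation factor genes, 15 were called lower after Fubp1 and 15 after Rbm38 knockdown, and 2 were called in either direction after Khsrp knockdown. A gene was called where the authors' false discovery rate (FDR, their adjusted p-value) was under 0.05. The table holds a single RPKM value per group, so a level carries no error here, and no difference between knockdowns could be tested for expression. In the Fubp1 knockdown the authors' deposited table called 15 of 46 members lower (32.6%) and 0 higher. Over all 23378 genes tested there, 10.5% were called lower and 12% higher, and over the 13543 of them with a highest level of at least 1 RPKM, 16.6% and 17.7%. In the Rbm38 knockdown the authors' deposited table called 15 members lower (32.6%) and 1 higher, beside 7.02% and 7.96% of all genes and 11.5% and 11.1% of genes at 1 RPKM or more.

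The double knockdown had 10 members called lower (21.7%) and 1 higher in the authors' deposited table, beside 13.7% and 13.2% of all genes and 20.9% and 18.9% of genes at 1 RPKM or more. The members' share of lower calls there was near that of other genes at 1 RPKM or more. The Khsrp knockdown had 1 member called lower and 1 higher (2.2% each) in the authors' deposited table, beside 4.34% and 3.82% of all genes and 6.81% and 5.85% of genes at 1 RPKM or more. Median log2 fold changes over the 46 members were -0.35 for Fubp1, -0.01 for Khsrp, -0.09 for the double and -0.34 for Rbm38 in the authors' deposited table. The medians over all genes tested were 0.00, -0.00, 0.00 and 0.02. The log2 fold change was below 0 for 40, 24, 29 and 39 of 46 members in that order. Over all 23378 genes tested it was below 0 for 11478, 11744, 11444 and 11127. Over the 13543 genes at 1 RPKM or more it was below 0 for 7003, 6746, 6805 and 6763. All 4 comparisons share the same siNT libraries, so their members' values are set side by side and are not independent of each other. The Fubp1 libraries and 2 of siNT are numbered 1 to 4 in the titles, the third siNT library and the other knockdowns 8 to 27. Expression differences between Fubp1 and another knockdown therefore cannot be told apart from differences between these library sets. The siNT libraries fall in both sets and each knockdown in a single set. Expression differences from siNT can therefore also hold a part of the difference between sets, and that part was not tested.

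**Figure D1:**
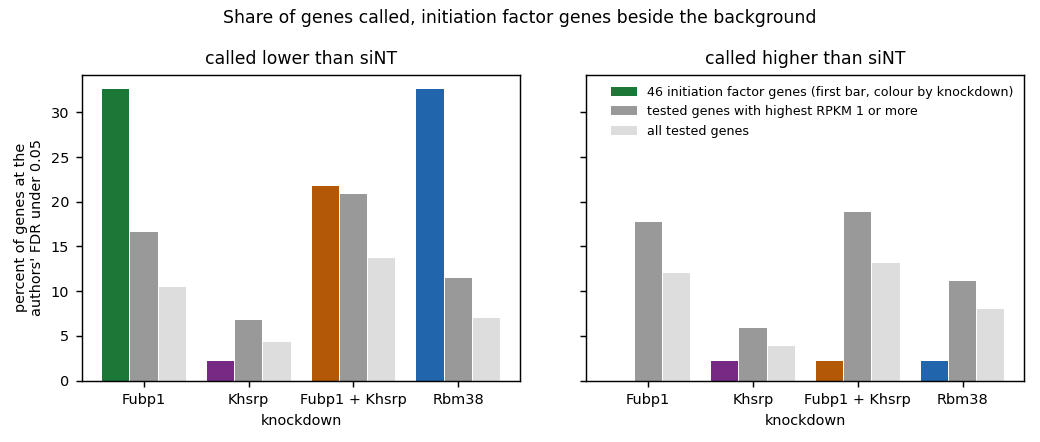
Percent of genes called lower (left) and higher (right) than siNT at the authors' FDR under 0.05, for the 46 initiation factor genes (coloured bars), tested genes with a highest level of at least 1 RPKM (dark grey) and all tested genes (light grey), by knockdown. Lower calls reach 32.6% of members after Fubp1 and after Rbm38 knockdown, against 16.6% and 11.5% of genes at 1 RPKM or more, which are not matched to the members' level.

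Summed over the 46 members, levels in the authors' deposited table were 9243.41 RPKM in siNT, 6940.71 in the Fubp1, 9033.63 in the Khsrp, 8244.24 in the double and 8108.5 in the Rbm38 knockdown. Members were abundant messages. Their median siNT level was 139.82 RPKM in the authors' deposited table, against 14.79 RPKM over tested genes at 1 RPKM or more. The shares of genes called were therefore not matched for level, and the part of level in them was not tested. The highest were Eif4g2 (901.83 RPKM), an eIF4G relative without the cap-binding arm, Eif4a1 (841.96), Eif1 (626.57), Eif5a (611.31) and Eif3d (369.22), per the authors' deposited table. Since these are bulk samples, a lower share of a cell type and less RNA per cell cannot be told apart. The summed level of the 11 markers of other cell types was 8.47 RPKM in siNT, 26.74 in the Fubp1, 16.72 in the Khsrp, 66.82 in the double and 9.35 in the Rbm38 knockdown in the authors' deposited table. Of the 9 of these markers tested, 1 was called higher and 1 lower after Fubp1, 2 and 0 after Khsrp, 4 and 1 after the double and 1 and 0 after Rbm38 knockdown. Acta2, a smooth muscle actin, read 3.89 RPKM in siNT and 22.93, 9.01, 60.93 and 4.12 RPKM after Fubp1, Khsrp, double and Rbm38 knockdown in the authors' deposited table. The lower calls were Pecam1, an endothelial adhesion protein, after Fubp1 (log2 fold change -0.94) and Mbp, a myelin protein, after the double knockdown (-1.47) in the authors' deposited table. Col3a1 and Epcam were listed at or near 0 in every group. The part of these genes in the members' differences was not tested.

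**Figure D2:**
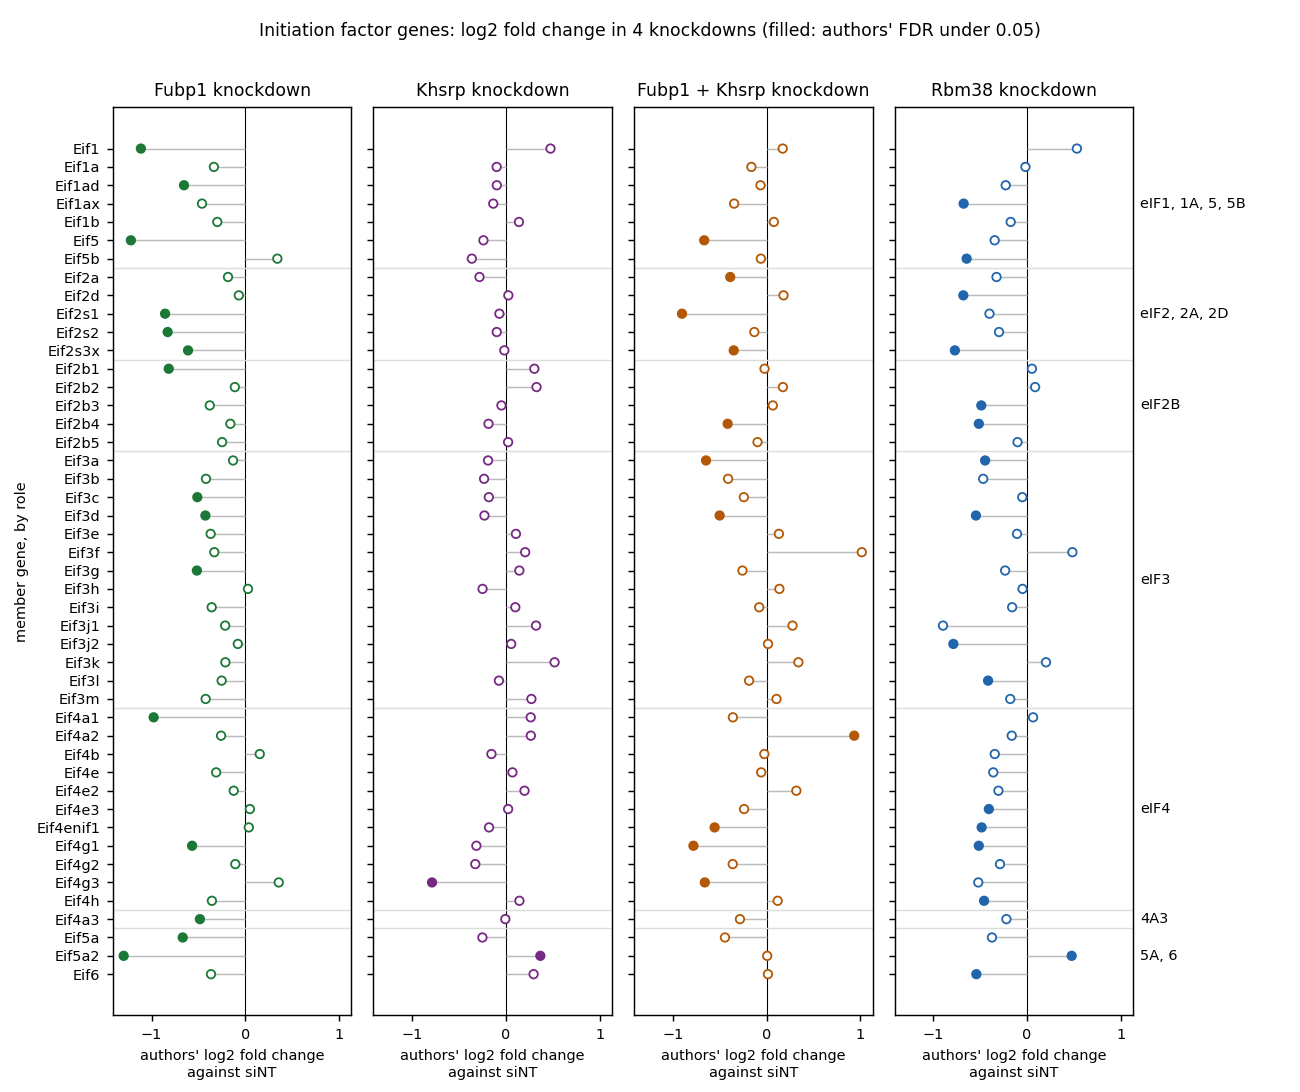
Authors' log2 fold change against siNT (x axis) of each of the 46 members (y axis, grouped by role) in the 4 knockdowns, with filled points at the authors' FDR under 0.05. In the Fubp1 panel all 15 filled points lie left of 0, from -1.30 for Eif5a2 to -0.43 for Eif3d, while the Khsrp panel holds 2 filled points, Eif4g3 and Eif5a2.

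The 7 factors of start codon selection and subunit joining were lower in 3 cases after Fubp1 knockdown, in 0 after Khsrp, in 1 after the double and in 2 after Rbm38 knockdown, with none called higher. For these and the following counts by role, the background is the share of genes called in each knockdown, given above. The role groups are small, and none was tested against that share. Eif5, which triggers GTP hydrolysis by eIF2 at the start codon, read 213.21 RPKM in siNT and 102.25, 172.34, 137.66 and 154.21 RPKM after Fubp1, Khsrp, double and Rbm38 knockdown in the authors' deposited table. Its log2 fold change was -1.22 after Fubp1 (FDR 5.75e-15) and -0.67 after the double knockdown, both called in the authors' deposited table. Every knockdown was below siNT for Eif5, and Fubp1 was the lowest.

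Eif1, the guardian of start codon stringency, read 626.57 RPKM in siNT, 285.27 after Fubp1 and 801.09, 653.49 and 863.62 RPKM after Khsrp, double and Rbm38 knockdown in the authors' deposited table. Its fall after Fubp1 knockdown (log2 fold change -1.12, FDR 0.0274) passed the threshold in the authors' deposited table. The same gene in the double knockdown had a log2 fold change of 0.17 (FDR 0.841) in the authors' deposited table, which was not called. Eif1ad, a relative of eIF1A, was lower after Fubp1 knockdown (log2 fold change -0.65) in the authors' deposited table. Eif5b, the subunit-joining GTPase, and Eif1ax were called lower after Rbm38 knockdown, with log2 fold changes of -0.65 and -0.68 in the authors' deposited table. Eif1ax has a close copy, Eif1a, and Eif1 has processed pseudogenes, so reads could be shared between copies and these values are less certain.

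Among the 5 genes for eIF2 and for the alternative carriers of initiator transfer RNA, 3 were lower after Fubp1, 0 after Khsrp, 3 after the double and 2 after Rbm38 knockdown, and none was called higher. All 3 subunits of eIF2 itself fell after Fubp1 knockdown. Eif2s1, the alpha subunit that stress kinases phosphorylate, read 113.74 RPKM in siNT and 65.55, 99.72, 58.15 and 80.58 RPKM after Fubp1, Khsrp, double and Rbm38 knockdown in the authors' deposited table. Log2 fold changes for Eif2s1 were -0.86 after Fubp1 and -0.90 after the double knockdown in the authors' deposited table, and both were called. Eif2s2, the beta subunit, went from 310.1 to 182.99 RPKM after Fubp1 knockdown (log2 fold change -0.83) in the authors' deposited table. The gamma subunit gene Eif2s3x read 325.89 RPKM in siNT and 192.95, 352.98, 287.79 and 213.85 RPKM in the 4 knockdowns in the same order of the authors' deposited table. It was called lower after Fubp1 (-0.61), after the double (-0.35) and after Rbm38 knockdown (-0.77, FDR 9.99e-07) in the authors' deposited table. Eif2d, which can deliver the initiator without eIF2, fell after Rbm38 knockdown from 11.58 to 7.71 RPKM (log2 fold change -0.68) in the authors' deposited table. Eif2a, another such carrier, was called lower after the double knockdown, with a log2 fold change of -0.39 in the authors' deposited table.

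The 5 subunit genes of eIF2B, the exchange factor that recharges eIF2, had 1 lower call after Fubp1, 0 after Khsrp, 1 after the double and 2 after Rbm38 knockdown. Eif2b1, the alpha subunit, fell after Fubp1 knockdown from 92.42 to 51.96 RPKM (log2 fold change -0.82) in the authors' deposited table, where the other groups lay between 88.17 and 109.31 RPKM. Eif2b4 was called lower after the double (-0.41) and the Rbm38 knockdown (-0.51) in the authors' deposited table, and Eif2b3 after the Rbm38 knockdown (-0.49).

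Of the 14 subunit genes of eIF3, the large scaffold on the small ribosomal subunit, 3 were lower after Fubp1, 0 after Khsrp, 2 after the double and 4 after Rbm38 knockdown, and none was called higher. Eif3d, the subunit that can itself contact the cap, read 369.22 RPKM in siNT and 253.89, 335.38, 267.33 and 261.82 RPKM after Fubp1, Khsrp, double and Rbm38 knockdown in the authors' deposited table. Its called log2 fold changes were -0.43, -0.50 and -0.55 after Fubp1, double and Rbm38 knockdown in the authors' deposited table. Eif3c and Eif3g, of the core and of the RNA-binding module, were lower after Fubp1 knockdown, with log2 fold changes of -0.51 and -0.52 in the authors' deposited table. Eif3a, the largest core subunit, was lower after the double (-0.65) and the Rbm38 knockdown (-0.45) in the authors' deposited table. Eif3j2 read 119.26 RPKM in siNT, between 108.5 and 118.34 RPKM in the 3 knockdowns of Fubp1 and Khsrp, and 61.38 RPKM after Rbm38 knockdown in the authors' deposited table. Its log2 fold change there was -0.79 (FDR 8.23e-08), the lowest called value of any member after Rbm38 knockdown in the authors' deposited table. Eif3j1, a near-identical copy at far lower level (8.07 RPKM in siNT), had -0.90 but an FDR of 0.156 in the authors' deposited table, and reads of the pair could be shared. Eif3f stood at 1.02 after the double knockdown, the highest log2 fold change of any member there, with an FDR of 0.0662 in the authors' deposited table, so it was not called.

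The 11 genes of cap binding and unwinding had 2 lower calls after Fubp1, 1 after Khsrp, 3 after the double and 4 after Rbm38 knockdown, and 1 higher call, after the double knockdown. The helicase paralogs were called in different knockdowns and in opposite directions. Eif4a1, the main eIF4A of dividing cells, read 841.96 RPKM in siNT and 470.14, 922.26, 621.53 and 856.61 RPKM after Fubp1, Khsrp, double and Rbm38 knockdown, and was called after Fubp1 (log2 fold change -0.98, FDR 1.36e-04) in the authors' deposited table. Its paralog Eif4a2 read 158.77 RPKM in siNT and 131.14, 176.32, 284.03 and 136.19 RPKM in the same order in the authors' deposited table. Eif4a2 was called higher after the double knockdown (0.94, FDR 1.54e-07) in the authors' deposited table. Neither single knockdown of its pair passed for Eif4a2, with log2 fold changes of -0.26 after Fubp1 and 0.27 after Khsrp in the authors' deposited table.

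The eIF4G scaffolds fell in several knockdowns. Eif4g1 read 224.33 RPKM in siNT and 149.21, 184.19, 133.79 and 163.7 RPKM after Fubp1, Khsrp, double and Rbm38 knockdown in the authors' deposited table. It was called lower after Fubp1 (-0.57), double (-0.78) and Rbm38 knockdown (-0.52) in the authors' deposited table. Eif4g3, the other full-length scaffold, read 70.64 RPKM in siNT, 89.32 after Fubp1, 43.3 after Khsrp, 46.78 after the double and 53.67 RPKM after Rbm38 knockdown in the authors' deposited table. It was the lower call of the Khsrp knockdown (-0.79, FDR 0.0212) and was also called after the double knockdown (-0.66) in the authors' deposited table. Eif4enif1, which carries eIF4E into the nucleus and to repressed messages, was lower after the double (-0.55) and the Rbm38 knockdown (-0.49) in the authors' deposited table. Eif4h, the cofactor of eIF4A, and Eif4e3, a cap-binding relative of eIF4E, were lower after Rbm38 knockdown, at -0.46 and -0.41 in the authors' deposited table. The cap-binding protein gene Eif4e itself passed in none of the 4 knockdowns, its log2 fold changes running from -0.36 to 0.07 in the authors' deposited table. Its levels in the authors' deposited table ranged more widely, at 163.03 RPKM in siNT and 106.08, 218.51, 199.38 and 158.84 RPKM after Fubp1, Khsrp, double and Rbm38 knockdown. Log2 ratios of these RPKM values to siNT were -0.62, 0.42, 0.29 and -0.04, so the change of Eif4e is less certain.

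Of the factors outside this core, Eif5a2 gave the lowest log2 fold change of any member. Eif5a2, a paralog of the elongation-promoting factor eIF5A, read 20.29 RPKM in siNT and 8.85, 21.93, 18.12 and 24.06 RPKM after Fubp1, Khsrp, double and Rbm38 knockdown in the authors' deposited table. Its log2 fold change was -1.30 after Fubp1 (FDR 6.04e-21), 0.37 after Khsrp (FDR 0.0387), 0.01 after the double and 0.48 after Rbm38 knockdown (FDR 0.00166) in the authors' deposited table. Eif5a2 was the only member called in opposite directions in different knockdowns. Log2 ratios of its RPKM values to siNT were -1.20 after Fubp1, 0.11 after Khsrp and 0.25 after Rbm38 knockdown, so its higher calls are less certain. Eif5a, which has many processed pseudogenes, fell after Fubp1 knockdown from 611.31 to 377.04 RPKM (log2 fold change -0.67) in the authors' deposited table. Eif4a3, the helicase of the exon junction complex and not an initiation factor in function, was lower after Fubp1 (-0.49), and Eif6, which keeps the ribosomal subunits apart, was lower after Rbm38 knockdown (-0.54) in the authors' deposited table.

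Promoters of these genes were looked up because many members fell together after Fubp1 knockdown. RefSeq promoters (GRCm38.p6, 250 bases before to 50 after the listed start) matched 37 of 46 members. The E-box CACGTG, a palindrome bound by MYC and related factors, stood in 8 of 37 members' windows (21.6%), beside 7.24% of 27025 promoters of the same length. Among the 15 members called lower after Fubp1 knockdown it stood in 3 (20%), and among the 22 others in 5 (22.7%). The GC box, GGGCGG or CCGCCC, stood in 75.7% of members' windows and 35.9% of all. A C followed by at least 4 pyrimidines, anywhere near the listed start, stood in 27% of members' windows and 30.8% of all. It was not required to stand at the start itself. These shares therefore do not measure the motif by which growth signals control messages of the translation machinery. The 27025 promoters were not limited to genes expressed in these cells, while all members were expressed. Whether members differ in these motifs from other expressed genes was not tested. Below are windows of the 3 members with both an E-box and a lower call after Fubp1 knockdown, 5′ to 3′ on the gene's strand, with an E-box in capitals. They lie at chr3:28781108-28781167 (plus strand), chr11:69672580-69672639 (minus strand) and chr16:20672646-20672705 (plus strand) of GRCm38.p6, upstream of the listed starts. The Eif5a2 window holds another copy in lower case near its end.
Eif5a2: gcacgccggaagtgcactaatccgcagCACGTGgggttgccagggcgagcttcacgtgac
Eif4a1: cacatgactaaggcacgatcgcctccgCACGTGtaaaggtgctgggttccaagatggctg
Eif4g1: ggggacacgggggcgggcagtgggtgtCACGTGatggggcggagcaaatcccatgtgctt

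Other genes of the pathway were read from lists by role. The sharpest was Pdcd4, a repressor that binds eIF4A and keeps it from eIF4G, which read 7.17 RPKM in siNT and 47.25, 9.66, 35.09 and 10.67 RPKM after Fubp1, Khsrp, double and Rbm38 knockdown in the authors' deposited table. Its log2 fold change was 2.67 after Fubp1 and 2.29 after the double knockdown, and 0.49 and 0.63 after Khsrp and Rbm38, and all 4 were called higher in the authors' deposited table. Of all tested genes at 1 RPKM or more, 16.6%, 6.81%, 20.9% and 11.5% were called lower after Fubp1, Khsrp, double and Rbm38 knockdown. In the same order 17.7%, 5.85%, 18.9% and 11.1% were called higher. The lists hold few genes, and none was tested against these shares. Among the 18 genes of cap-binding control, 4 were higher and 2 lower after Fubp1, 1 and 0 after Khsrp, 3 and 5 after the double and 2 and 3 after Rbm38 knockdown. Beside Pdcd4, the largest called changes after Fubp1 knockdown were Rheb, the GTPase that activates mTORC1 (-1.06), and Mknk2, a kinase of eIF4E (1.00), in the authors' deposited table.

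Of 14 genes for poly(A) binding and accessory initiation factors, 3 were lower after Fubp1, 3 after Khsrp, 7 after the double and 6 after Rbm38 knockdown, and 1 was higher, after the double. Denr, which recycles ribosomes and restarts initiation, read 73.57 RPKM in siNT and 59.85, 25.12, 33.13 and 51.01 RPKM after Fubp1, Khsrp, double and Rbm38 knockdown, and was called lower in all 4 in the authors' deposited table. Abce1, the ribosome-splitting ATPase, fell after Rbm38 knockdown from 274.64 to 107.82 RPKM (log2 fold change -1.21) in the authors' deposited table. Paip1, a partner of the poly(A)-binding protein, fell after the double knockdown from 148.33 to 63.98 RPKM (log2 fold change -1.17) in the authors' deposited table.

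Of 11 elongation and termination factors, 2, 1, 2 and 3 were lower after Fubp1, Khsrp, double and Rbm38 knockdown, and 1 was higher, after Fubp1. Eef1a2 fell from 147.3 to 83.18 RPKM after Khsrp and to 79.39 RPKM after the double knockdown in the authors' deposited table. Of 6 kinases and phosphatase subunits that act on eIF2 alpha, 1 was higher after Fubp1, 1 lower after Khsrp, 0 called after the double and 1 each way after Rbm38 knockdown. The higher ones were Eif2ak3 (0.37, Fubp1) and Eif2ak2 (0.52, Rbm38) in the authors' deposited table.

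Splicing of these genes was read as PSI (percent spliced in): for an exon, the share of transcripts that contain it, for an intron, the share that keep it. Of the 950 events 441 had a mean PSI below 1 and 373 above 99, which left 136 events in 32 genes to test: 45 exons, 51 introns, 23 alternative acceptor (3′) sites and 17 alternative donor (5′) sites. Eif4g3 and Eif4enif1 held 17 each and Eif4g1 15. Limma was fitted on the log2 odds of inclusion with read weights over all 11 libraries, and a call needed an adjusted p under 0.05 (Benjamini-Hochberg, over all 60137 tested events) and 10 or more points between group means. The call fell on 1 member event after Fubp1, 2 after Khsrp, 3 after the double and 3 after Rbm38 knockdown, of 136 in each case. Over all tested events 1.16%, 0.186%, 6.98% and 0.358% were called. The members' share was below that background after Fubp1 and double knockdown and above it after Khsrp and Rbm38 knockdown, on at most 3 events each and with no test of the difference. The members' tested events held a median of 378.5 to 1132.5 reads per library, against 99 to 221 over all tested events. The shares of events called, here and between knockdowns, were therefore not matched for depth, and the part of depth in them was not tested. The members' median absolute difference was 1.02, 0.94, 1.79 and 1.13 points, beside 1.31, 1.28, 2.01 and 1.21 points over all tested events.

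The 9 calls fell on 6 events in 5 genes, namely Eif4h, Eif4g1, Eif4enif1, Eif4g3 and Eif4e3, all of the cap-binding and unwinding group. These genes also held many of the 136 tested events, with 3, 15, 17, 17 and 2 in the same order. Whether calls were more frequent in this group than in the others was not tested. Without read weights, limma called 0, 0, 2 and 0 member events in the same order, with 7, 13, 25 and 13 at an unadjusted p under 0.05, beside calls at 0.0565%, 0.0%, 6.37% and 0.0% of all tested events. The 2 were the Eif4enif1 and Eif4e3 exons after the double knockdown. The authors' own True or False marks, whose criterion the sources used here do not give, fell on 7, 8, 24 and 4 of 749 member events with a mark given in the authors' deposited table of calls, against 1.31%, 0.594%, 3.96% and 0.658% of all events.

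**Figure D3:**
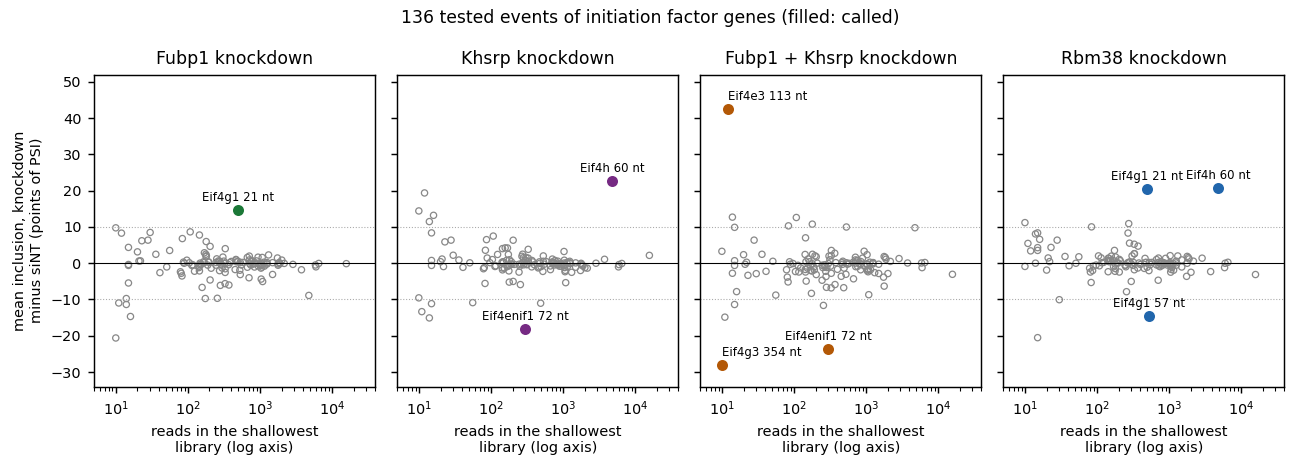
Mean PSI of the knockdown minus siNT, in points (y axis), against the reads in the shallowest library (log x axis) for the 136 tested events of initiation factor genes, with called events filled and named. Most points lie within 10 points of 0, and the Eif4h exon stands out at a depth of at least 4790 reads.

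Sequences of 3 called exons and of an Eif4g3 exon that differed between knockdowns follow, because each lies wholly within coding sequence and has a length that is a multiple of 3. They are read 5′ to 3′ from GENCODE vM21 transcripts (GRCm38), the exon in capitals and 20 bases of the neighbouring exons on each side in lower case. The Eif4h exon is at chr5:134624441-134624500 (minus strand, exon 5 of 7), the Eif4g1 exon at chr16:20674786-20674806 (plus strand, exon 4 of 33), the Eif4enif1 exon at chr11:3233988-3234059 (plus strand, exon 11 of 19) and the Eif4g3 exon at chr4:138087533-138087565 (plus strand, exon 6 of 13).
Eif4h 60 nt exon: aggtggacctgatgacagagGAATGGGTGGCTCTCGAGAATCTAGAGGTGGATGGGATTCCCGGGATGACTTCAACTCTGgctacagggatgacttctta
Eif4g1 21 nt exon: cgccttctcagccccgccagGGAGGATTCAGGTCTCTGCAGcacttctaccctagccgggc
Eif4enif1 72 nt exon: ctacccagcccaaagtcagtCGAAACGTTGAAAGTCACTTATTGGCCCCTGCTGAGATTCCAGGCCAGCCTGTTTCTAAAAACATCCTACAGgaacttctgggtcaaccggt
Eif4g3 33 nt exon: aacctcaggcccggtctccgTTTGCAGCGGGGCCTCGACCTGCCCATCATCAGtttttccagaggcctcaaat
Of the 5 called exons 4 had a length that is a multiple of 3, and 3 of these, the exons of Eif4h, Eif4g1 and Eif4enif1 printed above, lie wholly in coding sequence, so that including or skipping them keeps the reading frame. The share of exons with such a length was 44.4% among the members' 45 tested exons and 40.3% among 21319 tested exons of all genes.

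The Eif4h exon was included more often after Khsrp and after Rbm38 knockdown. Eif4h encodes the cofactor that raises eIF4A helicase activity, and this exon separates its long and short forms. The exon was set to be named whatever its result, with earlier results of these data known. Inclusion was 44.0, 43.9 and 47.1% in the siNT libraries, 38.7 and 33.5% after Fubp1, 67.9 and 67.4% after Khsrp, 54.7 and 54.9% after the double and 67.2 and 64.0% after Rbm38 knockdown, on 4790 to 10177 reads per library. No knockdown overlapped siNT, with Fubp1 below it and the others above. The difference from siNT was 22.7 points after Khsrp (adjusted p = 3.77e-07, limma) and 20.6 points after Rbm38 knockdown (2.88e-06). After Fubp1 knockdown it was -8.89 points (adjusted p = 0.00173, limma) and after the double knockdown 9.78 points (1.35e-04), both under the 10-point limit.

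Without read weights the adjusted p for Khsrp and Rbm38 against siNT was 0.258 and 0.253. The knockdowns also differed from each other. The double knockdown lay between its single knockdowns, 18.7 points above Fubp1 (adjusted p = 2.61e-06, limma) and at -12.9 points from Khsrp (4.36e-05). Khsrp exceeded Fubp1 by 31.6 points (2.11e-08), and Rbm38 exceeded Fubp1 by 29.5 points (1.95e-07) and the double by 10.8 points (4.21e-04) in the same limma fit. Without read weights the adjusted p was 0.0949 for the double against Fubp1, 0.159 for the double against Khsrp, 0.0811 for Khsrp against Fubp1 and 0.2 for Rbm38 against the double knockdown, so those 4 calls were lost. Without the Rbm38 A library, Rbm38 against the double was 9.21 points. The double knockdown minus the sum of the single effects was -4.00 points (log2 odds -0.28, SE 0.12, adjusted p = 0.399, limma), which was not called. A retained 865 nt intron of Eif4h stood at 3.74, 2.08 and 1.91% in siNT and at 0.64 and 0.56% after Khsrp knockdown, a difference of -1.98 points (adjusted p = 0.0286, limma).

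Within the libraries numbered 1 to 4 in the titles, which hold 2 siNT and the Fubp1 libraries, the Eif4h exon differed by -7.84 points. Within those numbered 8 to 27, which hold the third siNT library and the other knockdowns, it differed by 20.6 points after Khsrp, 7.67 after the double and 18.5 after Rbm38 knockdown. Every contrast between Fubp1 and another knockdown crosses these library sets.

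Eif4g1 had 2 called exons near its 5′ end, and they moved in opposite directions after Rbm38 knockdown. The exon of 21 nt belongs to the very short class called microexons, known mainly for inclusion in neurons, and adds residues to the amino-terminal part of the scaffold. Its inclusion was 43.7, 37.2 and 36.5% in siNT, 57.2 and 50.5% after Fubp1, 31.2 and 25.0% after Khsrp, 31.4 and 33.3% after the double and 60.2 and 58.7% after Rbm38 knockdown. Fubp1 and Rbm38 libraries were all above siNT, and Khsrp and double libraries all below. The difference from siNT was 14.7 points after Fubp1 (adjusted p = 0.00298, limma) and 20.4 points after Rbm38 knockdown (0.00191). It was -11.0 points after Khsrp (adjusted p = 0.128, limma) and -6.77 after the double knockdown (0.181), which were not called.

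The Fubp1 call rested on few libraries, since without the Fubp1 A library the adjusted p was 0.1, and without read weights it was 0.311 for Fubp1 and 0.299 for Rbm38. Between knockdowns, the 21 nt exon differed by -25.8 points for Khsrp minus Fubp1 (adjusted p = 5.46e-04, limma) and by -21.5 points for the double minus Fubp1 knockdown (0.00137). With a term for the library sets these became 0.0823 and 0.149, and without read weights 0.125 and 0.0843. Rbm38 exceeded Khsrp by 31.4 points (adjusted p = 1.80e-04, limma; 0.0754 without read weights) and the double by 27.1 points (2.16e-04). The double knockdown minus the sum of the single effects was -10.4 points (log2 odds -0.62, SE 0.28, adjusted p = 0.438, limma).

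The 57 nt exon of Eif4g1 lies at chr16:20673599-20673655 of GRCm38, exon 2 of 33, and in the 5 matching GENCODE transcripts it holds no coding sequence. Its inclusion was 80.2, 79.5 and 77.0% in siNT, 73.2 and 78.3% after Fubp1, 80.1 and 81.7% after Khsrp, 87.4 and 90.4% after the double and 65.7 and 62.9% after Rbm38 knockdown. Rbm38 libraries were below every other library and the double above every other library. The Rbm38 difference from siNT was -14.6 points (adjusted p = 0.00128, limma; 0.365 without read weights and 0.119 with a term for the library sets). After the double knockdown it was 9.97 points (adjusted p = 0.0053, limma), just under the 10-point limit. Rbm38 differed by -24.6 points from the double (adjusted p = 2.29e-05, limma) and by -16.6 points from Khsrp knockdown (0.00302; 0.259 without read weights and 0.0784 without the Khsrp A library). The authors' deposited table of calls marked the 57 nt exon after double and Rbm38 knockdown, and the 21 nt exon after Fubp1, Khsrp and Rbm38 knockdown.

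**Figure D4:**
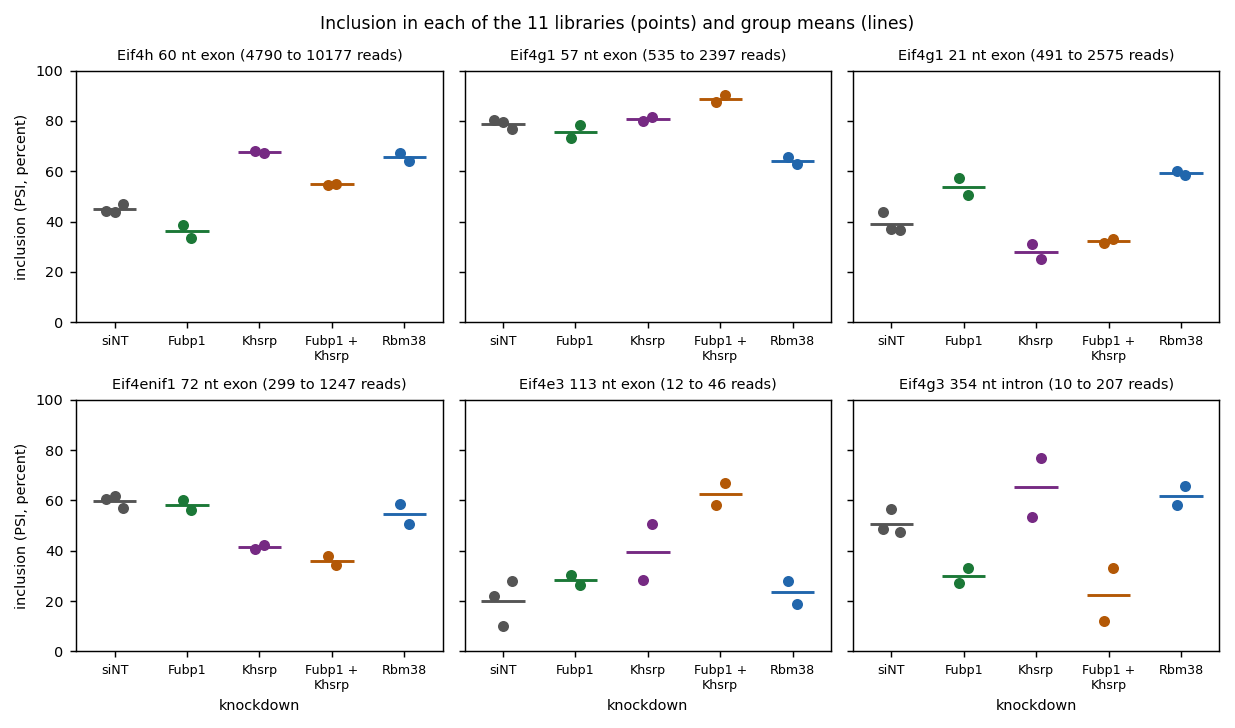
Inclusion (PSI, percent, y axis) of the 6 called events in each of the 11 libraries (points), with group means (lines), by knockdown (x axis), with the range of reads per library in each panel title. The Eif4h exon groups do not overlap siNT in any knockdown, while the Eif4g3 intron and the Eif4e3 exon rest on few reads.

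The Eif4enif1 exon of 72 nt was skipped more often whenever Khsrp was knocked down. Its inclusion was 60.4, 61.6 and 56.9% in siNT, 60.3 and 56.3% after Fubp1, 40.9 and 42.1% after Khsrp, 37.8 and 34.4% after the double and 58.5 and 50.7% after Rbm38 knockdown. Khsrp and double libraries were below all others, while Fubp1 overlapped siNT. The difference from siNT was -18.1 points after Khsrp (adjusted p = 0.00377, limma) and -23.6 points after the double knockdown (8.26e-05). Against Fubp1 knockdown the difference was -22.3 points for the double and -16.8 points for Khsrp (adjusted p = 4.65e-04 and 0.00424, limma). Both were lost with a term for the library sets (0.0986 and 0.377) and without read weights (0.0686 and 0.248), and Khsrp against Fubp1 also without the Fubp1 A (0.0641) or Khsrp A library (0.139). The Khsrp call against siNT was lost without read weights (0.351), with a term for the library sets (0.175) and without the Khsrp A library (0.175). The double knockdown call against siNT held in each alternative run, with adjusted p up to 0.0126 in limma.

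Further along Eif4enif1, exons of 61, 80 and 140 nt that lie close together differed between knockdowns and not from siNT. Rbm38 exceeded Fubp1 knockdown by 10.7, 10.9 and 11.7 points (adjusted p = 0.0246, 0.0279 and 0.0267, limma) and the double by 10.6, 12.04 and 12.2 points (0.0167, 0.0133 and 0.0168). In siNT the 140 nt exon ran from 87.9 to 94.7%, a spread that spans most of that between knockdowns. Each of these 6 calls was lost without either Rbm38 library, and those against Fubp1 also without either Fubp1 library, with a term for the library sets and without read weights (adjusted p from 0.0676 to 0.225 over these settings). Those against the double were also lost without the double knockdown B library (0.0557 to 0.0715). These exons were singled out after their values were seen, and their reads may be shared by the same transcripts.

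Eif4g3 had a called retained intron of 354 nt after the double knockdown, on few reads. It was kept in 48.5, 56.5 and 47.4% of transcripts in siNT, 27.03 and 33.3% after Fubp1, 53.5 and 76.9% after Khsrp, 11.9 and 33.3% after the double and 58.3 and 65.6% after Rbm38 knockdown, on 10 to 207 reads. The difference after the double knockdown was -28.2 points (adjusted p = 0.00171, limma). Without the double knockdown A library, which held 207 of those reads, it was -17.5 points with an adjusted p of 0.775, and the call was also lost with a term for the library sets (0.176) and without read weights (0.0638). The 33 nt exon of Eif4g3, chosen after its values were seen, was included in 21.5, 20.7 and 26.3% in siNT, 14.3 and 11.9% after Fubp1, 21.7 and 28.8% after Khsrp, 11.1 and 17.9% after the double and 28.0 and 24.8% after Rbm38 knockdown. Fubp1 and double libraries were all below siNT. The difference was -9.74 points after Fubp1 (adjusted p = 0.00638, limma), under the 10-point limit, and Rbm38 exceeded Fubp1 knockdown by 13.3 points (0.00371; 0.438 with a term for the library sets, 0.186 without read weights and 0.0841 without the Rbm38 A library). The 129 nt exon of Eif4g3 was marked in the authors' deposited table of calls after the double knockdown, where its mean inclusion was 83.6% ± 5.30 (SD, n = 2) against 72.9% ± 4.09 (SD, n = 3) in siNT, and limma gave an adjusted p of 0.15.

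The Eif4e3 exon of 113 nt was included in 22.1, 10.0 and 28.1% in siNT and in 58.1 and 67.0% after the double knockdown, a difference of 42.5 points (adjusted p = 0.0235, limma). It held 12 to 46 reads per library, and leaving out siNT A, siNT B or either double knockdown library raised the adjusted p to between 0.0632 and 0.153. With a term for the library sets it was 0.274. The neighbouring Eif4e3 exon of 130 nt stood at 100.0% in all siNT libraries and at 93.4 and 76.5% after Khsrp knockdown, a difference of -15.1 points that was not called (adjusted p = 0.385, limma). Eif2d had a 104 nt exon marked in the authors' deposited table of calls after the double knockdown, where inclusion was 97.2 and 92.5% against 78.8, 85.4 and 82.6% in siNT (12.6 points, adjusted p = 0.0825, limma). The Eif4e2 intron of 11612 nt, marked there after Khsrp knockdown, was kept in 10.7 and 7.25% against 19.1, 24.0 and 16.6% in siNT (-10.9 points, adjusted p = 0.238, limma).

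Smaller differences passed the adjusted p but not the 10-point limit. At an adjusted p under 0.05 alone, limma gave 7, 6, 19 and 6 of 136 member events after Fubp1, Khsrp, double and Rbm38 knockdown, beside 2.88%, 0.367%, 14.6% and 0.713% of all tested events, and 25 events in at least 1 knockdown. The members' share after the double knockdown was near that of all tested events, and these shares too were not matched for depth. Among these 25 events, 3 introns of Eif4a2 were retained less after the double knockdown. The level of that gene was higher there, and a link between its intron retention and its level was not tested. The 236 nt intron was kept in 3.23, 3.54 and 3.45% in siNT and 0.39 and 0.28% after the double knockdown (-3.07 points, adjusted p = 5.63e-05, limma). The introns of 80 and 767 nt differed by -3.62 and -4.31 points (adjusted p = 7.48e-04 and 2.59e-04, limma). The other knockdowns lay between 1.05 and 1.86% for the 236 nt intron, below siNT and above the double. A 200 nt exon of Eif3a was included in at least 99.7% of transcripts in each siNT library and in 91.7 and 95.1% after the double knockdown (-6.33 points, adjusted p = 8.61e-07, limma).

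Contrasts between knockdowns called 4 member events for the double against Fubp1, beside 4.21% of all tested events, 2 for the double against Khsrp (4.63%) and 4 for Khsrp against Fubp1 knockdown (0.945%). Rbm38 knockdown differed at 7 member events from Fubp1 (1.83%), at 2 from Khsrp (0.481%) and at 10 from the double knockdown (6.52%). Leaving out either Fubp1 or either Rbm38 library took Rbm38 against Fubp1 to 2 or 3, and leaving out either Rbm38 library or the double knockdown A library took Rbm38 against the double to 4 or 5. With a term for the library sets, the double against Fubp1 gave 2, Khsrp against Fubp1 1 and Rbm38 against Fubp1 2. Khsrp against Fubp1 gave 2 without the Fubp1 A or Khsrp A library. For the double knockdown against the sum of the single effects limma called 0 member events, beside 0.472% of all, with 18 of 136 at an unadjusted p under 0.05 and 1 at an adjusted p under 0.05 alone, beside 0.622% of all. Without read weights limma called 0 member events and 0.0% of all, with 5 member events at an unadjusted p under 0.05.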

How the data were processed

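RPKM values per group and, for each knockdown against siNT, a log2 fold change, p-value and FDR were deposited by the authors. The submitters' processing notes name Salmon 0.14.1, edgeR and mm10 without roles, and no source used here says how replicates were combined. Members' log2 ratios of RPKM differed in sign from the authors' deposited log2 fold change for 1, 5, 7 and 2 genes after Fubp1, Khsrp, double and Rbm38 knockdown.

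Splicing came as a deposited vast-tools style table with PSI in percent per library and a quality text holding inclusion and exclusion read counts. A second table, also deposited, gives the authors' PSI score for each group and their marks. Recomputing PSI from the reads moved no value by more than 0.05 points. Event coordinates did not follow GRCm38, so exons were matched to GENCODE by exon and flanking intron lengths (17 of 23 looked for).

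Log2((inclusion + 0.5)/(exclusion + 0.5)) was fitted in limma 3.58.1 (R 4.3.3) with binomial read weights, 1 mean per group, 11 libraries and 11 contrasts, for events with at least 10 reads in every library and mean PSI from 1 to 99. Without molecular identifiers, read numbers speak to counting error alone. The fit was tested on simulated data. Replicate letters did not pair samples (correlations of A minus B differences from -0.062 to 0.058), and no libraries were duplicates (at most 7.71% identical PSI values). Alternatives were other read, PSI and FDR thresholds, no weights, a replicate term, a term for library sets and leaving out each library.

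Members, gene lists and tests were chosen with earlier results of these data known. By rule the text names up to 12 called members per knockdown by fold change, the 5 most abundant and those beside the threshold. It also names events called by limma or marked by the authors at 10 points, and up to 3 genes per other list. Further genes and events are named beyond this rule, such as Eif3c and Eif4a3 after Fubp1 knockdown.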

Additional observations from a re-analysis of the deposited data

Results flagged for a closer look

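The Eif5a exon of 94 nt, an exon in the 5′ part of the gene with no coding sequence in the matching GENCODE transcripts, was the member event whose Khsrp effect differed with and without Fubp1 knockdown by the interaction contrast in limma. Inclusion was 3.51, 3.82 and 3.16% in siNT, 3.07 and 2.93% after Fubp1, 2.59 and 2.37% after Khsrp, 3.55 and 3.55% after the double and 2.56 and 1.99% after Rbm38 knockdown. The double knockdown exceeded the sum of the single effects by 1.57 points (log2 odds 0.73, SE 0.16, adjusted p = 0.0466), which is under the 10-point limit. The adjusted p rose above the threshold, to between 0.054 and 0.201, without siNT A, siNT B or any 1 of the Fubp1, Khsrp and double knockdown libraries. It was 0.0591 with 1 added to the reads and 0.772 without read weights, and the exon was not tested with mean PSI limits of 5 and 95. Both double libraries lay within the siNT range, and both Khsrp libraries below it.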

How the results depend on the processing

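There were 1647 alternative values for the named genes and events and for events called between knockdowns. Of these, 1499 kept their side of the threshold, 136 lost the call, 12 gained it and 0 reversed a call. Direction was compared only where a value was called, and some small differences that were not called changed sign. Without read weights, called member events went to 0 after Fubp1, Khsrp and Rbm38 knockdown, and the cause was not tested. With 20 or more reads in every library the double knockdown had 1, since the Eif4g3 intron and the Eif4e3 exon were then not tested. With a limit of 5 points there were 3 after Fubp1 and 7 after the double knockdown. A term for library sets gave 1 after Khsrp. The replicate block gave 5 after the double knockdown, but the letters name libraries only, the third siNT library has a letter of its own, and the block gave 1 against the sum of single effects, where there was 0, and, at an adjusted p alone, 13, 10 and 3 in place of 6, 6 and 1 after Khsrp, after Rbm38 and against that sum. Leaving out each library in turn gave 1 to 2 after Fubp1 (2 without siNT A, siNT B or Fubp1 A), 1 to 2 after Khsrp (1 without Khsrp A) and 2 to 5 after the double knockdown (5 without siNT B or siNT C). Between knockdowns, no weights gave 0 for the double against Fubp1, Khsrp against Fubp1 and Rbm38 against Khsrp, and 1 for the double against Khsrp and Rbm38 against Fubp1. The library-set term gave 2, 1 and 2 for the double, Khsrp and Rbm38 against Fubp1, 4 for the double against Khsrp and 1 against the sum. With 20 reads the double against Khsrp had 1, and with 5 points 5, as Rbm38 against Khsrp had 4. Leaving out each library gave 4 in each case for the double against Fubp1, 1 to 3 for the double against Khsrp, 2 to 5 for Khsrp against Fubp1, 2 to 7, 1 to 3 and 4 to 10 for Rbm38 against Fubp1, Khsrp and the double, and 0 against the sum. Among member genes, an FDR under 0.01 gave 0 higher and 0 lower after Khsrp, 6 lower after the double and 7 lower after Rbm38 knockdown. Requiring an absolute log2 fold change of at least 0.5 gave 0 higher after Khsrp, and 0 higher and 9 lower after Rbm38 knockdown. Without the RPKM threshold, higher calls rose to 2 each after Khsrp, double and Rbm38 knockdown, by the addition of Eif2c5. Depth limited the Eif4g3 intron and the Eif4e3 exons, and expression could not be refitted by library.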
